A study of Mus musculus with 2 samples.

Results

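Genes of nerve-to-immune signalling were followed through IL-23 receptor reporter cells of the mouse small intestine: the receptors Ret, Gfra2, Vipr1, Vipr2 and Calcrl, the receptor partners Ramp1 and Ramp3, and the peptide precursors Calca and Penk. They were taken by symbol from the deposited feature table, where all 9 were found among its 32285 genes. Live eGFP-positive leukocytes were sorted from the gut of mice of genotype Il23r-eGFP, a reporter line, after removal of Peyer's patches and epithelium, and were profiled with 10x Genomics droplets in 2 libraries: 1 labelled Unstimulated and 1 labelled IL-23, in which cells received recombinant mouse IL-23 for 2 hours. All cells of both libraries carry the reporter allele. The sort fixes the population, since a cell without eGFP was not collected. The number and age of the animals are not stated, and the protocol text of both samples speaks of the stimulation, so that the unstimulated state rests on the group label. With 1 library per group, differences between groups could not be tested and have no replicates behind them. Intervals in brackets are exact 95% intervals (Poisson for sums, Clopper-Pearson for shares of cells) and cover counting error only.

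Cells kept had at least 500 genes and at most 10% mitochondrial unique molecular identifiers (UMIs, which count captured RNA molecules), 10790 of 11096 barcodes in the unstimulated and 9251 in the stimulated library, with medians of 4928 and 6087 UMIs. The libraries shared 29 barcodes. Cells were placed in 5 classes by transcripts. Cells with no UMI of Cd3d, Cd3e or Cd3g were split into those with Ncr1, the gene of the receptor NKp46 (the Ncr1 class, 1052 and 1258 cells in the unstimulated and stimulated library), those with the chemokine receptor gene Ccr6 (the Ccr6 class, 1535 and 1464), and those with no UMI of either (the neither class, 7440 and 5802). Cells with Cd3e were split into those with the gamma delta T cell receptor gene Trdc (the gamma delta class, 232 and 221) and those with the alpha beta gene Trac (the alpha beta class, 163 and 99). The 48 and 59 CD3-free cells with both Ncr1 and Ccr6, and the 23 and 13 with both Trdc and Trac, were left aside. All 10 markers of group 3 innate lymphoid cells (ILC3s) had UMIs in each CD3-free class, and in both T cell classes too, so that this count does not set the classes apart. The summed level of 6 markers of CCR6-positive ILC3s, Ccr6 among them, was 1716 and 1661 CPM (UMIs of a gene per 1000000 UMIs of its class) in the Ccr6 class against 156 and 155 CPM in the Ncr1 class. The neither class held the shallowest cells, and a cell can fall there because its Ncr1 or Ccr6 RNA was not captured.

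ILC3s sit beneath the gut epithelium close to enteric nerves and glia. Ret is the receptor tyrosine kinase of the glial cell line-derived neurotrophic factor (GDNF) family; it binds its ligands together with a co-receptor, of which Gfra2 encodes the one preferred by neurturin. Vipr1 and Vipr2 encode the receptors of vasoactive intestinal peptide (VIP), which enteric neurons release on feeding. Calcrl encodes a receptor whose ligand depends on its partner: with Ramp1 it binds calcitonin gene-related peptide (CGRP), and with Ramp3 it binds adrenomedullin. Calca encodes calcitonin and CGRP through alternative splicing, and Penk encodes proenkephalin, the precursor of opioid enkephalins. The VIP and CGRP receptors signal mainly through Gs and cyclic AMP.

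A gene was called readable in a class when it had at least 20 UMIs over both libraries, was found in at least 10 cells of 1 or both, and no cell held over 25% of its UMIs in a library with at least 20. Over the 5 classes and both libraries, Ramp3 had 288353 UMIs, Ret 9537, Ramp1 2622, Calca 2285, Calcrl 979, Vipr2 403, Penk 233, Vipr1 5 and Gfra2 1. Ret and Ramp3 were readable in all 5 classes, Ramp1 in 4, Calcrl in 3, and Vipr2 and Calca in 2. Gfra2, Vipr1 and Penk were readable in 0 classes and are too low, or too confined to single cells, to read.

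The counts are per gene, and for Calca this joins transcripts of different peptides. In the GENCODE annotation of GRCm38, Calca lies on chromosome 7 from 114631478 to 114636357 on the minus strand. The transcripts Calca-202, which ends in the exon that codes for calcitonin, and Calca-201, which skips that exon and codes for CGRP, share their first 227 coding bases and then part. The coding bases of each after that point are shown because the Calca values below cannot tell one from the other. They lie at chr7:114633605-114633785 (181 bases) and chr7:114632443-114632599 (157 bases), and are printed 5′ to 3′ along the transcript.
Calca-202: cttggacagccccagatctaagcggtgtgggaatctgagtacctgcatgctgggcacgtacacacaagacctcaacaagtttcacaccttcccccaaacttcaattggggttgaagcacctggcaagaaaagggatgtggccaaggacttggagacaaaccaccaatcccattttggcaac
Calca-201: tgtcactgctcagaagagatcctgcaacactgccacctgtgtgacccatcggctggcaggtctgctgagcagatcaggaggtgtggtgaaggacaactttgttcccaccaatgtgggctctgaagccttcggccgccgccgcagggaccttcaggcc
The paralog Calcb, which encodes a second CGRP, had 0 UMIs in both libraries.

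Upstream sequences of 6 of the 9 members were found in the RefSeq promoter table of GRCm38.p6. They are shown for the 3 genes whose patterns differ most: Ramp3, found in nearly every cell, Ramp1, which followed Ccr6, and Calca, which was held by few cells. Each run ends 1 base before the RefSeq start, or for Ramp3 before the first annotated exon, and is printed 5′ to 3′ on the strand of the gene. The regions are chr11:6658283-6658520 (plus strand), chr1:91179572-91179821 (plus strand) and chr7:114636358-114636607 (minus strand). Capitals mark matches on either strand to the ROR half-site AGGTCA and the cyclic AMP response element half-site TGACG. The STAT site TTCNNNGAA was searched too.
Ramp3: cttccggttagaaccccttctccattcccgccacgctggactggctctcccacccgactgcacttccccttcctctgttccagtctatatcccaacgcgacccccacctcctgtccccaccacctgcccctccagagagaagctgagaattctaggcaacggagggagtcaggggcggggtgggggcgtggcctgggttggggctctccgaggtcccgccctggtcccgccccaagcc
Ramp1: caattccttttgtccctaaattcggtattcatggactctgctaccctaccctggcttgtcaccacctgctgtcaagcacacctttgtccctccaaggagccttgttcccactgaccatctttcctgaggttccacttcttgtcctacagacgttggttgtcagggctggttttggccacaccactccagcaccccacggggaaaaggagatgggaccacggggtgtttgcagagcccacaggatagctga
Calca: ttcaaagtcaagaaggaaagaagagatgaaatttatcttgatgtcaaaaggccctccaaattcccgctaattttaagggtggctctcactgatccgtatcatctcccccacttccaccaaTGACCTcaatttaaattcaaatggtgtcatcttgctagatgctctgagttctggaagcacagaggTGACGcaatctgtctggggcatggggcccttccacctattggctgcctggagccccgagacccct
The Calca window held 1 ROR half-site, 130 bases before the start, and 1 cyclic AMP half-site, 65 bases before it. These letters were not in the Ramp1 and Ramp3 windows, nor was the STAT site in any of the 3. Of 32851 promoter windows of 250 bases, 14.0% held AGGTCA, 17.8% TGACG and 7.02% TTCNNNGAA, and a match describes letters only. The Ramp3 stretch had 66.0% G and C, against 54% in Ramp1 and 48% in Calca.

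Ret (chromosome 6, 118151745 to 118197718, minus strand) was found in every class. In the unstimulated library its level was 162 CPM (142 to 183) in the gamma delta class, 98.1 CPM (94.9 to 101) in the neither class and 95.9 CPM (89.6 to 103) in the Ccr6 class. The Ncr1 class stood at 54.6 CPM (49.2 to 60.4) and the alpha beta class at 37.6 CPM (27.7 to 49.8). The gamma delta class was thus the highest, the neither and Ccr6 classes did not differ beyond their intervals, and those of the Ncr1 and alpha beta classes touched. In the stimulated library the order of the middle pair turned, with 90.2 CPM (84.7 to 96.1) in the Ccr6 class and 78.6 CPM (75.7 to 81.7) in the neither class. The gamma delta class again stood highest at 127 CPM (111 to 145), followed after that pair by the Ncr1 class at 43.2 CPM (39.2 to 47.5) and the alpha beta class at 24.4 CPM (15.5 to 36.7).

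Ret UMIs were spread over many cells. In the unstimulated library 52.6% of gamma delta cells had a Ret UMI (122 of 232), against 33.9% of the Ccr6 class, 31.2% of the neither class, 23.2% of the Ncr1 class and 14.1% of the alpha beta class (23 of 163). The highest cell of any class held 9 Ret UMIs, and the 10 highest cells held 1.51% of Ret UMIs in the unstimulated and 1.72% in the stimulated library. With each cell thinned to 2000 UMIs and shallower cells left out (0 to 367 per class and library), the shares were 28.4% (22.7 to 34.7) in the gamma delta class, 16.4% (15.6 to 17.3) in the neither class and 15.0% (13.3 to 16.95) in the Ccr6 class. The Ncr1 class then stood at 8.80% (7.16 to 10.7), below both other CD3-free classes. Cells with at least 3 B or plasma cell markers serve as a background: 3 of 19 unstimulated (15.8%, 3.38 to 39.6, median 8697 UMIs) and 0 of 8 stimulated cells had a Ret UMI. The interval of the 19 cells also covers the unstimulated shares of the 3 CD3-free classes and the alpha beta class, so that only the gamma delta share lies above it, and at 2000 UMIs per cell the background of 10.5% (1.30 to 33.1) covers every class. CD3-free cells without either subset gene included 2318 of 7440 unstimulated and 1736 of 5802 stimulated cells with a Ret UMI.

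The co-receptor side of the GDNF family was close to empty. Gfra2 (chromosome 14, 70890120 to 70979838) gave 1 UMI in 1 stimulated cell of the neither class. A gene with 0 UMIs in the 7440 unstimulated cells of that class could still be present in up to 0.0496% of them, which limits cells with a UMI and not cells that use the gene. Gfra1, the co-receptor of GDNF, had 16 UMIs over all classes, Gfra3, that of artemin, had 1, and Gfra4, that of persephin, had 1. Before thinning, UMIs of both Ret and Gfra1 were in 1 cell of the unstimulated Ncr1 class, 2 of the unstimulated neither class, 2 of the stimulated Ccr6 class and 2 of the stimulated neither class. No cell had both Ret and Gfra2. Among the ligands, Gdnf had 0 UMIs, Nrtn (neurturin) 10 and Artn (artemin) 30.

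The VIP receptors differed in where they could be seen. Vipr1 (chromosome 9, 121642716 to 121672954) gave 5 single UMIs in 5 cells of 5 different class and library combinations. Vipr2 (chromosome 12, 116077726 to 116146261) was readable in 2 classes. In the Ccr6 class 82 unstimulated UMIs gave 9.17 CPM (7.29 to 11.4) and 68 stimulated UMIs gave 6.29 CPM (4.88 to 7.97). In the neither class the levels were 3.95 CPM (3.33 to 4.64) and 2.69 CPM (2.17 to 3.29). The Ncr1 class gave 3 UMIs in 2 cells and 5 UMIs in 3 cells, at 0.44 and 0.50 CPM. The T cell classes together gave 6 Vipr2 UMIs. Of the Ccr6 class, 4.76% of cells (73 of 1535) and 4.37% (64 of 1464) had a Vipr2 UMI, against 0.19% (0.023 to 0.69) and 0.24% (0.049 to 0.70) of the deeper Ncr1 class. Thinned to 2000 UMIs these shares were 1.72% and 0.83% in the Ccr6 class and 0% and 0.16% in the Ncr1 class, so Vipr2 was near the limit of what 1 UMI can show. The antisense gene Gm20658, which overlaps Vipr2, had 5 and 2 UMIs.

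The CGRP receptor parts showed 3 different patterns. Ramp1 (chromosome 1, 91179822 to 91225196), the partner that directs the receptor to CGRP, stood at 57.1 CPM (52.3 to 62.3) in the unstimulated and 54.9 CPM (50.6 to 59.5) in the stimulated Ccr6 class. In the Ncr1 class it stood at 3.78 CPM (2.47 to 5.54) and 2.42 CPM (1.55 to 3.60), from 26 and 24 UMIs. The neither class lay between, at 20.6 CPM (19.2 to 22.1) and 16.6 CPM (15.3 to 18.1). The gamma delta class, at 29.6 CPM (21.7 to 39.3) and 18.9 CPM (13.0 to 26.6), did not differ from the neither class beyond their intervals. In the alpha beta class 1 of the 163 unstimulated cells held 13 of 34 Ramp1 UMIs, 38.2%, and the level there, 26.6 CPM with that cell and 16.4 CPM without it, was not read. A Ramp1 UMI was found in 24.7% (379 of 1535) and 27.7% (405 of 1464) of cells of the Ccr6 class and in 2.19% and 1.83% of the Ncr1 class, although the Ncr1 cells had more UMIs (medians of 5926 and 7287 against 4995 and 6220). At 2000 UMIs per cell the shares were 9.77% and 9.49% against 0.96% and 0.56%.

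Calcrl (chromosome 2, 84330626 to 84425411), the receptor chain itself, was low in every class. It stood at 13.6 CPM (11.3 to 16.3) and 10.8 CPM (8.95 to 13.0) in the Ccr6 class, at 9.16 CPM (8.21 to 10.2) and 8.96 CPM (7.99 to 10.0) in the neither class, and at 4.51 CPM (3.06 to 6.40) and 4.04 CPM (2.88 to 5.50) in the Ncr1 class. The 3 classes kept this order in both libraries, and in the stimulated library the intervals of the Ccr6 and neither classes overlapped. In the T cell classes 2 to 7 UMIs per library were too few to read. The cell with the most Calcrl UMIs in each library lay in the neither class, with 22 of 37044 and 33 of 47655 UMIs. These 2 cells also held 21 and 46 UMIs of Pecam1, which endothelial cells carry at high level, and 0 of Il23r. They had UMIs of 4 and 7 of the 10 ILC3 markers, and each of 2 of the 4 stroma and endothelium markers. What these 2 cells are was not tested. Without them the neither class stood at 8.57 and 8.002 CPM. The list of 4 stroma and endothelium markers summed to 40.2 to 98.5 CPM over the classes and libraries, nearly all of it Pecam1, which some leukocytes also carry. Cdh5, a defining endothelial marker, was at 0 in the Ccr6 class and both T cell classes, at 0.92 and 2.37 CPM in the neither class, and at 1.31 and 0 CPM in the Ncr1 class.

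Ramp3 (chromosome 11, 6658521 to 6677475), the partner that directs the receptor to adrenomedullin, was found in 91.0% to 99.6% of cells of each class and library. In the unstimulated library its level was 3763 CPM in the gamma delta class, 3143 in the alpha beta class, 2925 in the neither class, 2808 in the Ncr1 class and 2357 in the Ccr6 class, with no overlap of intervals. Over both libraries, cells with a UMI held on average 14.4 to 27.7 Ramp3 UMIs, depending on the class. In the stimulated library the gamma delta (2993 CPM) and alpha beta (2880 CPM) classes had overlapping intervals, as had the Ccr6 (2100 CPM) and Ncr1 (2047 CPM) classes, and the neither class stood between them at 2277 CPM. Cells with B or plasma cell markers stood at 198 and 159 CPM, with a Ramp3 UMI in 7 of 19 and 3 of 8. Their medians of 8697 and 6847 UMIs were above every class in the unstimulated library and above the Ccr6 and neither classes in the stimulated one. Cells with at least 3 myeloid markers stood at 1077 CPM (7 of 11 cells) and 273 CPM (4 of 6). The processed pseudogene Gm11978 overlaps Ramp3 on the other strand and is not in the feature table.

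**Figure D1:**
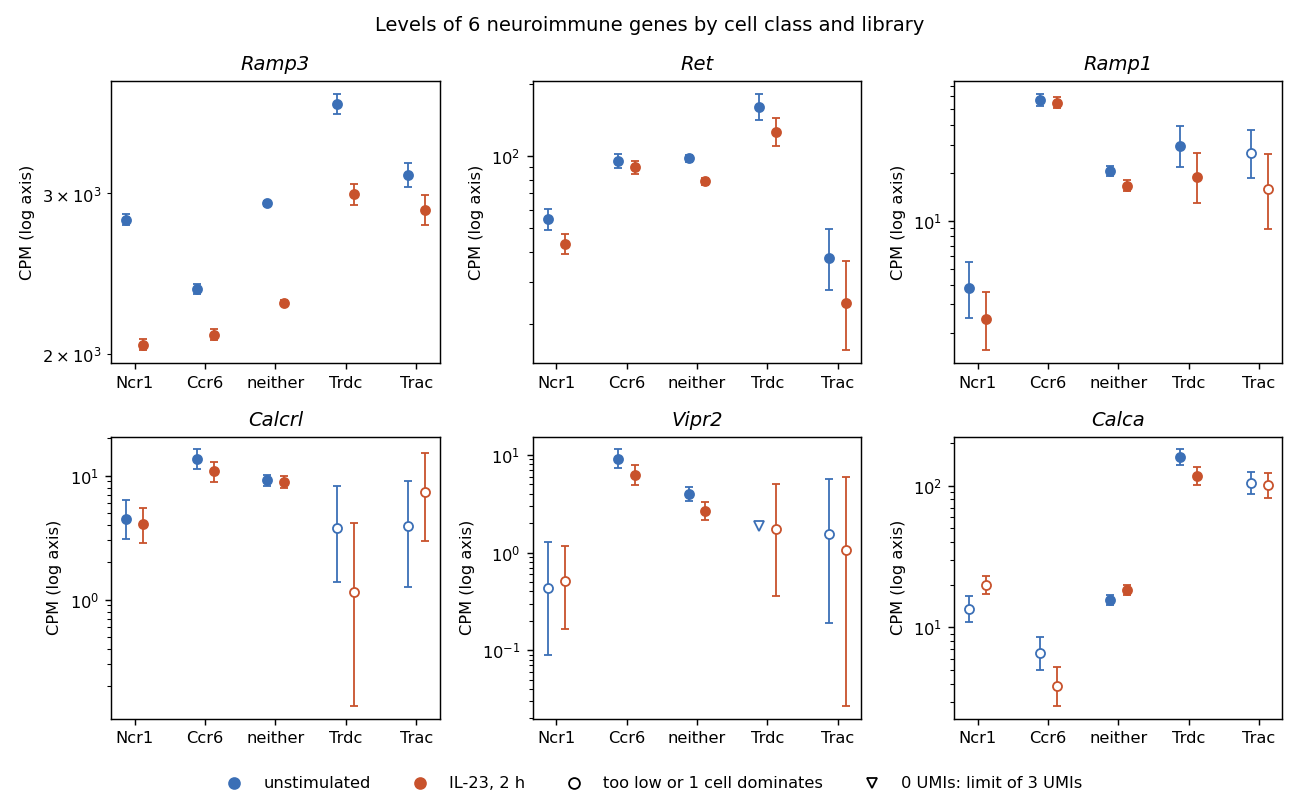
Level of 6 genes (CPM, log axis with a different range in each panel) in the 5 cell classes, named by their class gene, in the unstimulated and the IL-23 library. Points are sums over cells with 95% counting intervals, open points were not readable, and the triangle is the limit set by 3 UMIs where none was seen. Ramp1 was higher in the Ccr6 class than in the Ncr1 class in both libraries, and Ret was highest in the Trdc class. Vipr2 was not readable in the Ncr1 class, where it had 3 and 5 UMIs.

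The receptor chain and its partners were compared within cells thinned to 2000 UMIs. Ramp1 was found in 5 of 34 Calcrl cells of the unstimulated Ccr6 class, 14.7% (4.95 to 31.1), against 9.32% (7.89 to 10.9) of the cells without Calcrl. In the stimulated Ccr6 class it was found in 2 of 34, 5.88% (0.72 to 19.7), against 10.1% (8.56 to 11.8). Both pairs of intervals overlap, so no difference was detectable at this depth. In the neither class the values were 4.67% (1.53 to 10.6) against 4.18% (3.72 to 4.67) unstimulated, and 9.78% (4.57 to 17.8) against 3.28% (2.82 to 3.79) stimulated. Of these Ramp1 pairs only the last has intervals that do not overlap, with 9 cells behind it. Before thinning, 39 and 25 cells of the Ccr6 class held UMIs of both genes. Ramp3 was found in 26 of 39 unstimulated Calcrl cells of the Ccr6 class (66.7%, 49.8 to 80.9) against 85.8% (83.9 to 87.5) of the rest, and in 27 of 33 stimulated ones (81.8%, 64.5 to 93.0) against 86.0% (84.1 to 87.8). The unstimulated intervals do not overlap, with Ramp3 less frequent in Calcrl cells, and the stimulated ones do. The thinned values rest on a single random draw. Before thinning, 85 unstimulated cells of the Ccr6 class held UMIs of both Calcrl and Ramp3. Calcrl was then found in 99 cells of that class and Ramp3 in 91.0% of its cells. In the neither class Ramp3 was found in 89.8% of Calcrl cells against 92.2% unstimulated, and in 85.2% against 89.6% stimulated, with overlapping intervals.

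Calca, the CGRP and calcitonin gene, was concentrated in few cells. Cells with at least 5 Calca UMIs, a limit set after the values were seen, numbered 69 in the unstimulated and 73 in the stimulated library over the 5 classes, and held 74.9% and 77.4% of its UMIs. For Ret the same limit gave 7.72% and 7.80%, and for Ramp1 2.03% and 2.82%. These Calca-high cells made up 6.90% (3.99 to 10.96) and 8.60% (5.26 to 13.1) of the gamma delta class and 4.91% (2.14 to 9.44) and 3.03% (0.63 to 8.60) of the alpha beta class. In the Ncr1 class they made up 0.76% (0.33 to 1.49) and 1.11% (0.61 to 1.86), in the neither class 0.44% (0.31 to 0.62) and 0.62% (0.43 to 0.86), and in the Ccr6 class 0.26% (0.071 to 0.67) and 0.068% (0.0017 to 0.38). The gamma delta share was above those of the 3 CD3-free classes in both libraries without overlap of intervals.

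The Calca level was readable in 2 classes. In the gamma delta class 253 unstimulated UMIs gave 159 CPM (140 to 180) and 204 stimulated UMIs gave 117 CPM (102 to 134). In the neither class the levels were 15.6 CPM (14.3 to 16.9) and 18.3 CPM (16.9 to 19.7). A single gamma delta cell held 47 Calca UMIs, and without the top cell of each library the class stood at 130 and 108 CPM. Any Calca UMI was found in 15.9% (37 of 232) and 15.4% (34 of 221) of gamma delta cells and in 1.95% and 2.19% of the neither class. In the alpha beta class 1 stimulated cell held 64 of 95 Calca UMIs, 67.4%, and the level of 101 CPM became 32.9 CPM without it. The Ncr1 class (13.5 and 19.9 CPM) and the Ccr6 class (6.60 and 3.88 CPM) were not readable either, because the top cell held 28.0% of unstimulated and 26.2% of stimulated UMIs there. The cell with the most Calca UMIs of all, 142 of 6264, was in no class.

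Among CD3-free cells, the 45 unstimulated and 51 stimulated cells with at least 5 Calca UMIs were set beside the 9833 and 8336 with none. Among genes found in at least 25% of the first set in both libraries, those ranked first after Calca itself by the smaller of their 2 log2 differences, chosen after their values were seen, were Nkg7, a granule protein gene of cytotoxic cells, Gimap3 and Socs2. Nkg7 stood at 113 against 27.6 CPM unstimulated and 114 against 31.7 CPM stimulated, and Gimap3 at 286 against 86.8 and 317 against 111 CPM. Il22 stood at 2250 against 5871 CPM unstimulated and at 22278 against 26631 CPM stimulated. Ramp3 stood at 2848 against 2821 CPM and at 2039 against 2204 CPM. The 12 T cell markers summed to 765 against 510 CPM and 508 against 393 CPM in these sets, 6 of them having UMIs, with Cd3d, Cd3e and Cd3g at 0 by the choice of class. The part of T cells with undetected CD3 in these values was not tested.

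Penk UMIs came almost wholly from 1 cell. Of 228 Penk UMIs in the unstimulated alpha beta class 223 were in a single cell of 18409 UMIs, which had UMIs of 10 of the 12 T cell markers, with 15 UMIs of Trac, 3 of Cd4 and 0 of Foxp3. Without it the class stood at 3.91 CPM, against 4.25 CPM from 4 UMIs in the stimulated library. The 3 CD3-free classes and the gamma delta class gave 1 Penk UMI in all. The 7 markers of enteric neurons and glia summed to at most 1.06 CPM in any class, with Elavl4 at 0 throughout. The 3 enteroendocrine markers summed to at most 0.081 CPM.

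**Figure D2:**
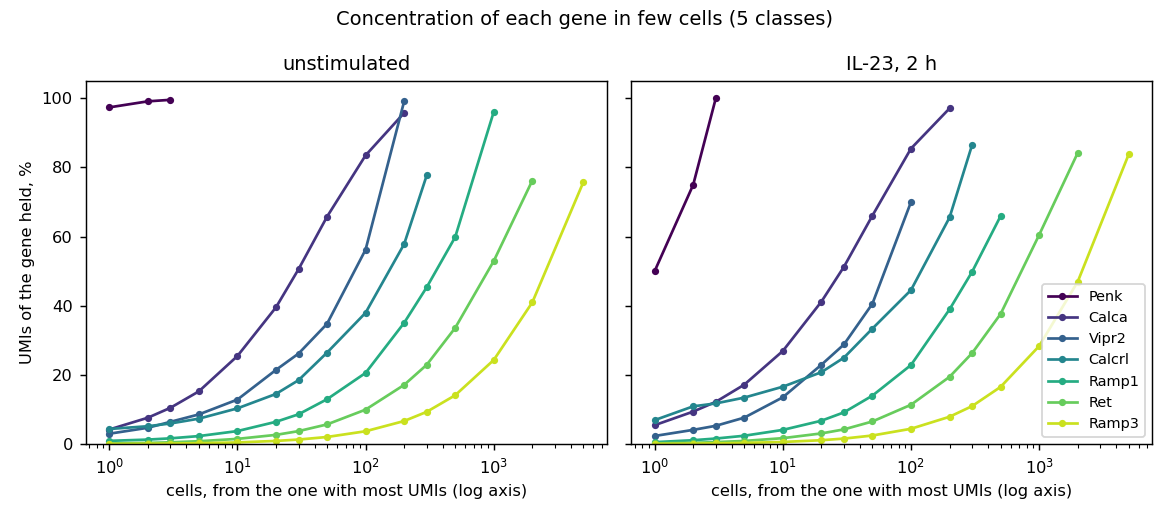
Cumulative share of the UMIs of each gene (vertical axis, %) held by the cells ranked from the one with most UMIs (horizontal axis, log scale), over the 5 classes of each library. Penk reaches 97.4% with 1 unstimulated cell and Calca 25.5% with 10, while the same 10 places hold 1.51% of Ret and 0.488% of Ramp3 UMIs.

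The comparison of the Ccr6 with the Ncr1 class asks which of these genes divide the ILC3 subsets. Of the 4 members readable in each class by itself, Ramp1, Calcrl and Ret were at least 1.5-fold higher in the Ccr6 class in both libraries, and Ramp3 was not. Vipr2 passed the filter only through the Ccr6 class, so that its direction was set by the filter and its values are a description. Of all 10616 genes readable in the unstimulated comparison 19.4% were that much higher and 10.8% that much lower, and of 10886 in the stimulated one 19% and 11.1%. On the log2 scale with 0.5 UMI added, Ramp1 differed by 3.89 (3.35 to 4.55) unstimulated and 4.47 (3.92 to 5.16) stimulated, 14.8-fold and 22.2-fold. It was number 53 and number 18 from the top among those genes. Vipr2 differed by 4.18 (2.80 to 6.70) and 3.51 (2.35 to 5.31), 18.1-fold and 11.4-fold, resting on 3 and 5 UMIs on the Ncr1 side. Calcrl was 2.99-fold and 2.66-fold higher, and Ret 1.76-fold and 2.09-fold. Ramp3 went the other way in the unstimulated library, 1.19-fold lower in the Ccr6 class, and differed by 1.03-fold in the stimulated one. With at least 2 UMIs of the class gene required, which leaves fewer and deeper cells, the Ramp1 difference was 4.56 and 5.26.

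The neither class could be split by other subset genes, a division made after its values were seen. Cells with Cd4, Nrp1 or Cxcr5 and none of Tbx21, Klrb1c or Xcl1 numbered 2443 and 2070, and cells with the reverse pattern 458 and 411. The split left out H2-Ab1 and Cd74 of the CCR6-positive ILC3 markers, and Klrk1 and Il2rb of the markers of Ncr1-positive ILC3s. Il2rb, for 1, had a UMI in 88.9% of unstimulated cells of the neither class. Ramp1 stood at 34.9 CPM and 27.5 CPM in the first set and at 1.82 CPM (5 UMIs) and 3.43 CPM (10 UMIs) in the second. Vipr2 stood at 6.38 and 4.76 CPM in the first, and at 1.46 CPM (4 UMIs) and 0 UMIs in the second. Ramp1 thus differed between these sets in the same direction as between the Ccr6 and Ncr1 classes, with few UMIs in the second set. That set was the deeper one (medians of 5691 and 6735 UMIs against 4667 and 5639). Vipr2 had too few UMIs in the second set for a direction to be read. Ret stood at 107 and 91.5 CPM against 47.8 and 35.3 CPM. The Calca values lay in reverse, at 4.18 and 13.8 CPM against 25.5 and 39.0 CPM. Of the 177 UMIs behind the 13.8 CPM, 46 were in 1 cell, over the limit of 25%, so the stimulated direction was not read. Calca in the second set rests on 17 cells in each library. The 4453 and 3230 cells with UMIs of none of the 6 genes used stood between for Ramp1 (14.8 and 11.4 CPM) and near the first set for unstimulated Ret (100.2 CPM).

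**Figure D3:**
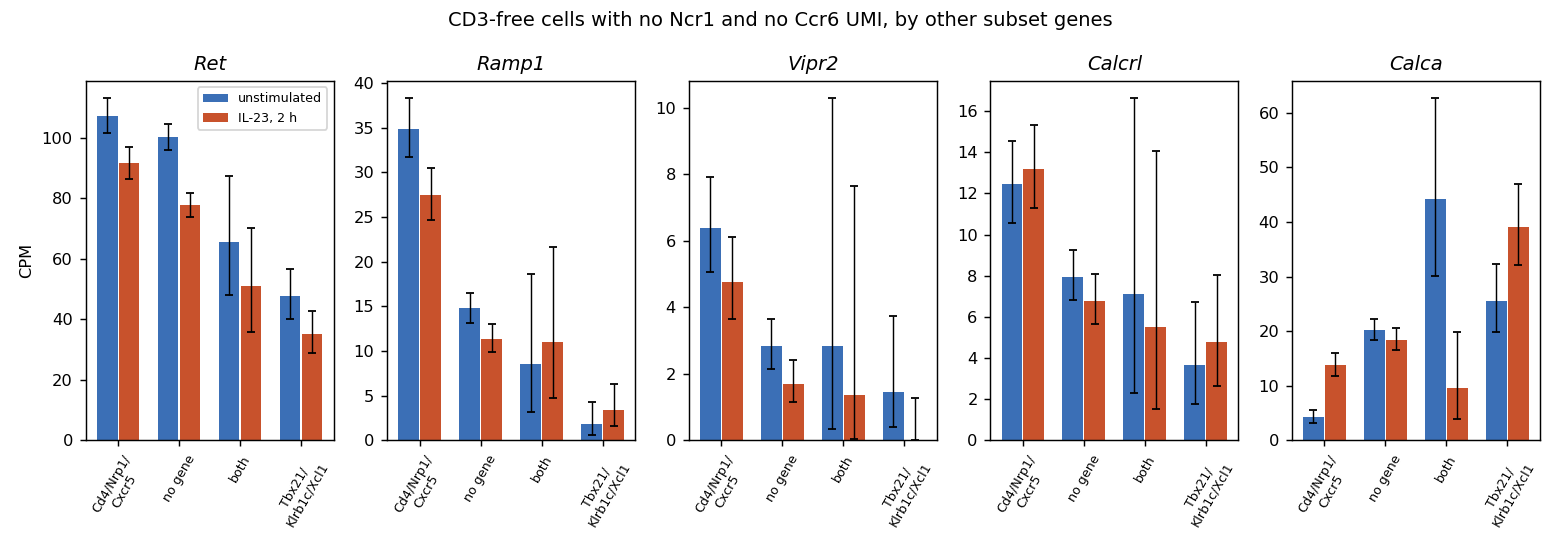
Level (CPM, bars from 0) of 5 genes in CD3-free cells with no Ncr1 and no Ccr6 UMI, divided by UMIs of other subset genes, in both libraries, with 95% counting intervals. Ramp1 is high in cells with Cd4, Nrp1 or Cxcr5 and near 0 in cells with Tbx21, Klrb1c or Xcl1, and Calca of the unstimulated library is lowest in the first set. Vipr2 in cells with only Tbx21, Klrb1c or Xcl1 rests on 4 and 0 UMIs.

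IL-23 had been present for 2 hours in the stimulated library, and the members' levels there were mostly lower. The median log2 ratio of stimulated over unstimulated CPM over the readable members was -0.40 in the Ncr1 class (4 members), -0.17 in the Ccr6 class (5), -0.31 in the neither class (6), -0.40 in the gamma delta class (4) and -0.37 in the alpha beta class (2). Over all readable genes the medians were -0.13, -0.12, -0.12, -0.057 and -0.070 in the same order. CPM are shares of a total, and the cause of these medians was not tested. Not 1 of the readable members was at least 1.5-fold higher in any class, against 6.92% of genes in the Ncr1 class, 4.66% in the Ccr6 class, 6.07% in the neither class, 8.57% in the gamma delta class and 7.28% in the alpha beta class. At least 1.5-fold lower were 1 of 4, 0 of 5, 0 of 6, 1 of 4 and 1 of 2 members, against 11.7%, 9.17%, 8.86%, 10.5% and 11.8% of genes. With so few members these counts are near the background. The 3 were Ramp1 in the Ncr1 class (-0.64, -1.51 to 0.21) and in the gamma delta class (-0.64, -1.33 to 0.030), and Ret in the alpha beta class (-0.60, -1.40 to 0.13). All 3 intervals include 0, and none of the 3 reached 1.5-fold relative to the median of all genes in its class.

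Smaller differences had narrower counting intervals for the genes with many UMIs. These intervals treat UMIs as independent and leave out the spread between cells, so they are too narrow. In the unstimulated alpha beta class, for 1, the 10th and 90th percentiles of Ramp3 were 8 and 42 UMIs per cell. Ramp3 had log2 ratios of -0.46 (-0.48 to -0.43) in the Ncr1 class, -0.36 (-0.37 to -0.35) in the neither class and -0.33 (-0.38 to -0.28) in the gamma delta class. In the Ccr6 class its ratio was -0.17 (-0.19 to -0.14) and in the alpha beta class -0.13 (-0.20 to -0.055). Relative to the median of all genes these are -0.33, -0.25 and -0.27, and -0.043 and -0.056, so that in the Ccr6 and alpha beta classes Ramp3 moved little beyond the shift of all genes. For Ret the ratio was -0.34 (-0.54 to -0.13) in the Ncr1 class, -0.32 (-0.39 to -0.25) in the neither class, -0.35 (-0.62 to -0.085) in the gamma delta class and -0.089 (-0.22 to 0.045) in the Ccr6 class. Whether the classes differ in these ratios was not tested.

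Among the rarer members, Vipr2 had ratios of -0.54 (-1.03 to -0.063) in the Ccr6 class and -0.55 (-0.95 to -0.17) in the neither class, which are -0.42 and -0.44 relative to the median. Ramp1 had -0.058 (-0.23 to 0.12) in the Ccr6 class, where it was highest, and -0.31 (-0.47 to -0.15) in the neither class. Calcrl had intervals that include 0 in all 3 classes where it could be read. Calca was the one readable member with a positive ratio, 0.23 (0.065 to 0.40) in the neither class, while in the gamma delta class its ratio was -0.44 (-0.72 to -0.17). Its UMIs come from few cells, and its intervals, which treat UMIs as independent, are too narrow.

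**Figure D4:**
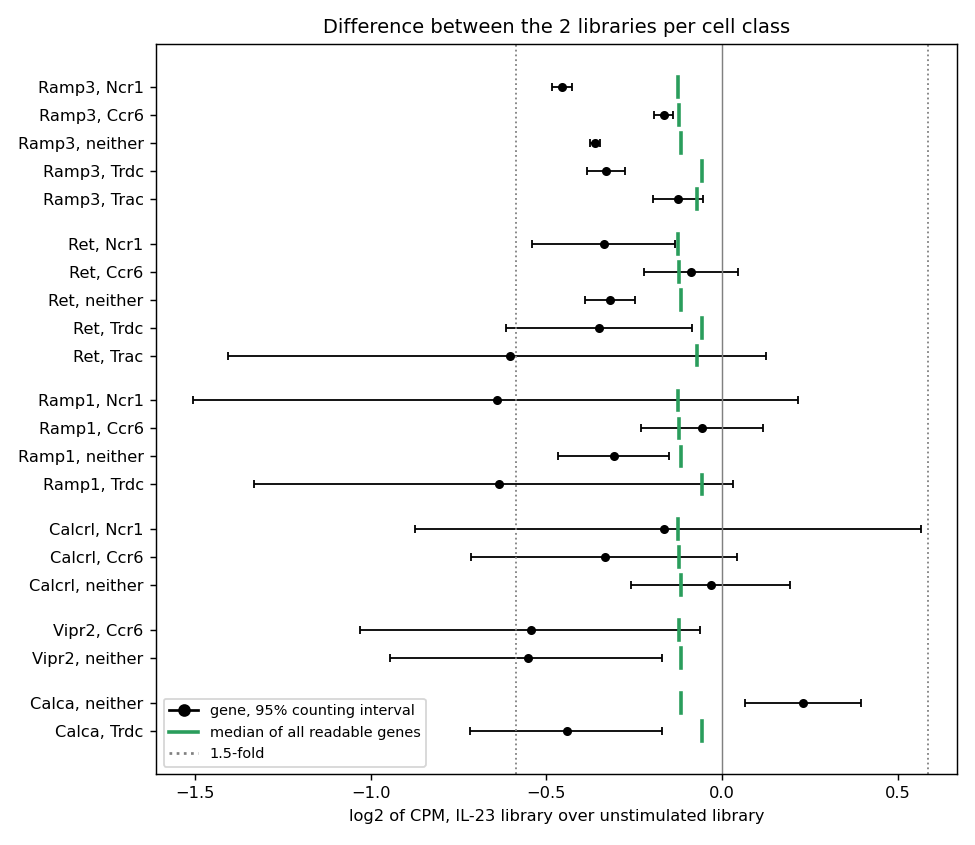
Log2 ratio of CPM, IL-23 library over unstimulated library, for each gene and class that could be read. Points carry 95% counting intervals, green marks are the median of all readable genes of the class, and dotted lines mark 1.5-fold. Of the 21 ratios 20 lie below 0, and Calca in the neither class is the exception. The median of all readable genes lies below 0 in every class too. Relative to that median, Ret and Ramp1 in the Ccr6 class and Calcrl and Calca in the neither class lie above 0. The ratios come from the same 2 libraries and are not independent.

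Of the other genes of these pathways, 71 were in the feature table and 31 were readable in 1 or more classes. None of the 5 VIP and PACAP family genes was readable, and Vip itself had 0 UMIs. Of 6 further CGRP and adrenomedullin family genes 2 were: Crcp, which encodes a protein that helps the CGRP receptor couple to its signal, and Adm, which encodes adrenomedullin. Adm was readable in the 3 CD3-free classes and higher in the stimulated library in 2 of them, at 13.8 against 25.8 CPM in the Ccr6 class (1.87-fold, log2 interval 0.60 to 1.23) and at 8.001 against 19.1 CPM in the neither class (2.38-fold, 1.05 to 1.46). In the Ncr1 class Adm stood at 5.82 against 6.76 CPM (1.16-fold, -0.37 to 0.82), an interval that includes 0. Ramp2, the third partner of Calcrl, had 162 UMIs but was not readable. Of 7 opioid genes only Pomc was readable, and of 7 GDNF family genes only Artn. Pomc lay at 2.12 to 4.70 CPM over classes and libraries, and Artn at no more than 0.57 CPM.

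Of 17 genes of cyclic AMP signalling 16 were readable in 1 or more classes, at very different levels. By the rule on level, the 6 named are Crem, a transcription factor gene that cyclic AMP induces (878 to 1392 CPM over classes and libraries), Gnas, which encodes the Gs alpha subunit (675 to 1150), Akap13, a scaffold of protein kinase A (420 to 992), Prkar1a, a regulatory subunit of that kinase (588 to 946), Pde4b, a phosphodiesterase that degrades cyclic AMP (225 to 479), and the receptor Nrp1 (24.4 to 219). At least 1.5-fold higher and lower in the stimulated library were 2 and 4 of 27 readable pathway genes in the Ncr1 class, 1 and 2 of 27 in the Ccr6 class, 3 and 2 of 30 in the neither class, 0 and 3 of 23 in the gamma delta class and 0 and 4 of 22 in the alpha beta class. Over all genes the shares higher and lower were 6.92% and 11.7%, 4.66% and 9.17%, 6.07% and 8.86%, 8.57% and 10.5%, and 7.28% and 11.8% in the same order, and with so few genes nothing is read from the counts. Higher were Pomc and Pde4d (Ncr1 class), Adm (Ccr6 and neither classes), and Artn and Npy1r (neither class). Lower were Pde4a in all 3 CD3-free classes (2.94-fold, 3.24-fold and 1.61-fold), Adcy7 in the Ncr1 and neither classes, Plxnd1 in the Ncr1 and Ccr6 classes, and Src in the Ncr1, gamma delta and alpha beta classes. In the gamma delta class Pde3b was 1.61-fold lower, and in the alpha beta class Prkaca, Prkacb and Pde8a were 1.52-fold to 1.57-fold lower. Some of these sizes rest on few cells. In the unstimulated and stimulated neither class Artn was found in 5 and 13 cells and Npy1r in 9 and 18. Src was found in 12 and 6 gamma delta cells and in 14 and 4 alpha beta cells. Counting intervals are not given for these, and their directions are descriptions. Relative to the median of all genes of the class, Adcy7 in the Ncr1 class, Plxnd1 in the Ccr6 class, Pde4a in the neither class and Prkaca, Prkacb and Pde8a in the alpha beta class no longer reached 1.5-fold. Pde7a in the Ncr1 class (log2 0.62 relative to that median) and Adcy3 in the Ccr6 class (0.61) then did.

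The genes most like the 3 members with most UMIs were sought over the 10 values (5 classes in 2 libraries) of log2(CPM + 1), among 8440 genes with at least 10 CPM in 1 of them. The nearest to Ramp3 were Tceal9 (Pearson r = 0.970), Dnajc8 (0.968) and Cebpzos (0.965). The nearest to Ret were Igf1r (0.966), 2810002D19Rik (0.962) and Pard3 (0.951), and the nearest to Ramp1 were Fut8 (0.966), Ifngr2 (0.963) and Commd6 (0.962). The 10 values share 2 libraries and their depth, and with 8440 candidates some genes lie this close in any case, so these are descriptions with no test. Pairs of members were also counted within cells at 2000 UMIs. In the Ccr6 class Ramp1 was found in 11.2% (7.51 to 15.9) of unstimulated Ret cells and 10.2% (8.60 to 11.998) of the rest, and in 9.17% (5.69 to 13.8) against 10.6% (8.94 to 12.5) in the stimulated library. In the gamma delta class Calca was found in 6.90% (1.91 to 16.7) of Ret cells and 14.4% (9.52 to 20.5) of the rest, and in 7.55% (2.09 to 18.2) against 9.70% (5.64 to 15.3). All these pairs of intervals overlap.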

How the data were processed

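Both 10x Genomics libraries were read as UMI matrices. The authors deposited whole-number UMI counts per gene and barcode. The submitters' processing notes name mm10 and Cell Ranger 3.1.0; per the file headers the software was cellranger 6.0.0. The annotation and the way cells were called: not given in the sources used here. Counts were summed per class and library and scaled to the class total (CPM). Ratios are log2 with 0.5 UMI added to each sum. No doublet caller was run, so doublets may be among the cells. Classes rest on captured transcripts, so depth and IL-23 could both move a cell between them. Intervals are 95% Poisson, Clopper-Pearson, or, for ratios, binomial given the total; 0 UMIs allow up to 3. A size was 1.5-fold. Thinning drew 2000 UMIs per cell without replacement (seed 11). The ratio, its interval and TMM scaling were checked on simulated independent Poisson sums, which lack the spread between cells. Class assignment, thinning and co-detection were not part of that check. Python 3.11.15, numpy 2.4.6, scipy 1.17.1, pandas and matplotlib were used. Positions came from GENCODE M21, matched by gene identifier (9 of 9).

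Named were all 9 members, the 6 pathway genes of highest CPM, every readable pathway gene at 1.5-fold or more (1 of which is counted but not reported here), and the 3 genes most like each of the 3 members with most UMIs. The pathway list held 72 symbols, of which 71 were in the feature table; Gas6, entered under the GDNF family by mistake, was left out. The members and lists were chosen with earlier results of these data known.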

Additional observations from a re-analysis of the deposited data

How the results depend on the processing

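No paired analysis was possible because each group is 1 library. Filters, class rules, scaling and added UMIs were varied 1 at a time. The count of members at least 1.5-fold lower in the Ncr1 class went from 1 to 0 under TMM scaling, with at least 10 CPM, with at least 2 UMIs of the class gene, and with at least 200 genes per cell. In the gamma delta class it went from 1 to 0 with 5 UMIs added, under TMM scaling and with at least 2 UMIs of the class gene. In the alpha beta class it went from 1 to 0 with 5 UMIs added, under TMM scaling and without the deepest 1% of cells. In the Ccr6 class it went from 0 to 1 with at least 2 UMIs of the class gene and with cells of both genes counted in both classes. In the Ncr1 class the count higher went from 0 to 1 with at least 2 UMIs of the class gene. The cause was not tested; each member at 1.5-fold lies near that size or rests on few UMIs. The count of members higher in the Ccr6 than in the Ncr1 class was 4 under all 10 alternatives in both libraries, but it includes Vipr2, which passed the filter only through the Ccr6 class, so its stability is partly set by that filter. These class comparisons under the alternatives, the division of the neither class, the limit of 5 Calca UMIs and 4 of the co-detection pairs were chosen after seeing the data.

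Of 21 stimulated over unstimulated ratios, 17 had 1 sign under all alternatives; those of Calcrl in the Ncr1 (-0.27 to 0.094) and neither (-0.20 to 0.062) classes, Ramp1 in the Ccr6 class (-0.093 to 0.087) and Ret in the Ccr6 class (-0.21 to 0.025) did not. Thinning removes UMIs, which lowers most shares of cells by construction. It also leaves out shallower cells, so that a share resting on 1 cell can rise. For Vipr1 and Penk in the unstimulated Ccr6 class it went from 0.0651% to 0.0660%. Gfra2, Vipr1, Vipr2 outside 2 classes and Calcrl in T cells had too few UMIs to read, and Penk was not read because 1 cell held most of its UMIs.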
